A study of Homo sapiens with 2 samples.

Results

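The interferon response, the guanylate-binding proteins (GBPs) and class I antigen presentation were followed through 50 genes chosen by name. The list was drawn up with earlier results of these data known. Its counts and medians beside all genes may therefore not be independent of the values. Every probe set that the platform annotation gives to exactly 1 gene was used where that gene was on the list. This gave 82 probe sets for 46 of the 50 genes, out of 34880 probe sets and 17689 genes in all, and GBP3, GBP4, RSAD2 and STAT2 were not analysed here. The list held 36 type I interferon targets (34 measured), 5 GBPs (3 measured) and 9 class I presentation genes (all measured). RNA came from LNCaP, an androgen-responsive human prostate carcinoma line, on Affymetrix U133 Plus 2.0 arrays. The control culture carried the empty pLKO.1 lentiviral vector, and the KDM4A knockdown culture carried a short hairpin RNA against KDM4A, a histone H3 demethylase. Both were harvested on day 3 after infection, and virus for both was packaged in HEK293T cells, a human embryonic kidney line. The control held no hairpin, so reduced KDM4A and the presence of a hairpin as such cannot be told apart. In such bulk RNA, fewer cells that express a gene and less of its RNA per cell cannot be told apart either. Each group had a single array, so differences below carry no replicate check and no p-value.

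Type I interferons bind a receptor whose JAK kinases activate STAT2. With IRF9 it enters a complex that binds interferon-stimulated response elements (ISREs) and switches on antiviral genes. Interferon gamma acts at gamma-activated sites and, through IRF1, induces GBPs and the class I machinery. In that machinery the immunoproteasome cuts proteins, TAP1 and TAP2 carry the peptides into the endoplasmic reticulum, and tapasin loads them onto HLA heavy chains paired with B2M. LNCaP cells have been reported to respond poorly to interferons and to express little JAK1.

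All values are taken to be on the log2 scale, the base not being stated. The deposited values of each probe set are centred on the mean of the 2 arrays, so the arrays mirror each other and signal levels are lost. A difference is the knockdown value minus the control value, averaged over the probe sets of a gene. The SD beside a value is taken over the probe sets for that gene, so it says nothing of how cultures vary. KDM4A itself was 2.26-fold lower in the knockdown (-1.18 ± 0.40, SD over 2 probe sets). Markers of leukocytes, which also carry interferon-responsive genes, lay between -0.14 and 0.24 for the 7 of 10 measured. Markers of fibroblasts and endothelium lay between -0.29 and 0.73 for the 7 of 8 measured, and 2 of them passed 1.5-fold upwards. These were COL1A1 (0.73 ± 0.76, SD over 4 probe sets) and COL3A1 (0.63 ± 0.68, SD over 3 probe sets), both collagen genes. The COL1A1 probe sets ran from 0.037 to 1.57. Of the 7, 4 lay above 0 and 3 below, with DCN at 0.044 and PECAM1 at -0.065. The RNA came from 1 cell line, and whether other cells had a part in the member values was not tested. Basal epithelial markers lay between -0.22 and 0.41 for the 5 of 6 measured, and luminal prostate markers between -0.76 and 0.48 for the 9 of 11 measured. Whether any of these markers was detected at all cannot be read from centred values.

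GBP1, GBP2 and TAP1 were at least 2-fold higher in the knockdown, and no member was 2-fold lower. Over all genes these shares were 1.16% for higher and 1.44% for lower. A smaller difference of at least 1.5-fold was reached by 6 members upwards (4.3% of all genes) and 1 downwards (4.38%). Of the 46 members, 29 lay above 0, against 53.7% of all genes. The median over members was 0.13, with quartiles of -0.13 and 0.33, beside a median of 0.020 and quartiles of -0.14 and 0.18 over all genes. The members therefore spread on either side of 0, with a few at the upper end.

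**Figure D1:**
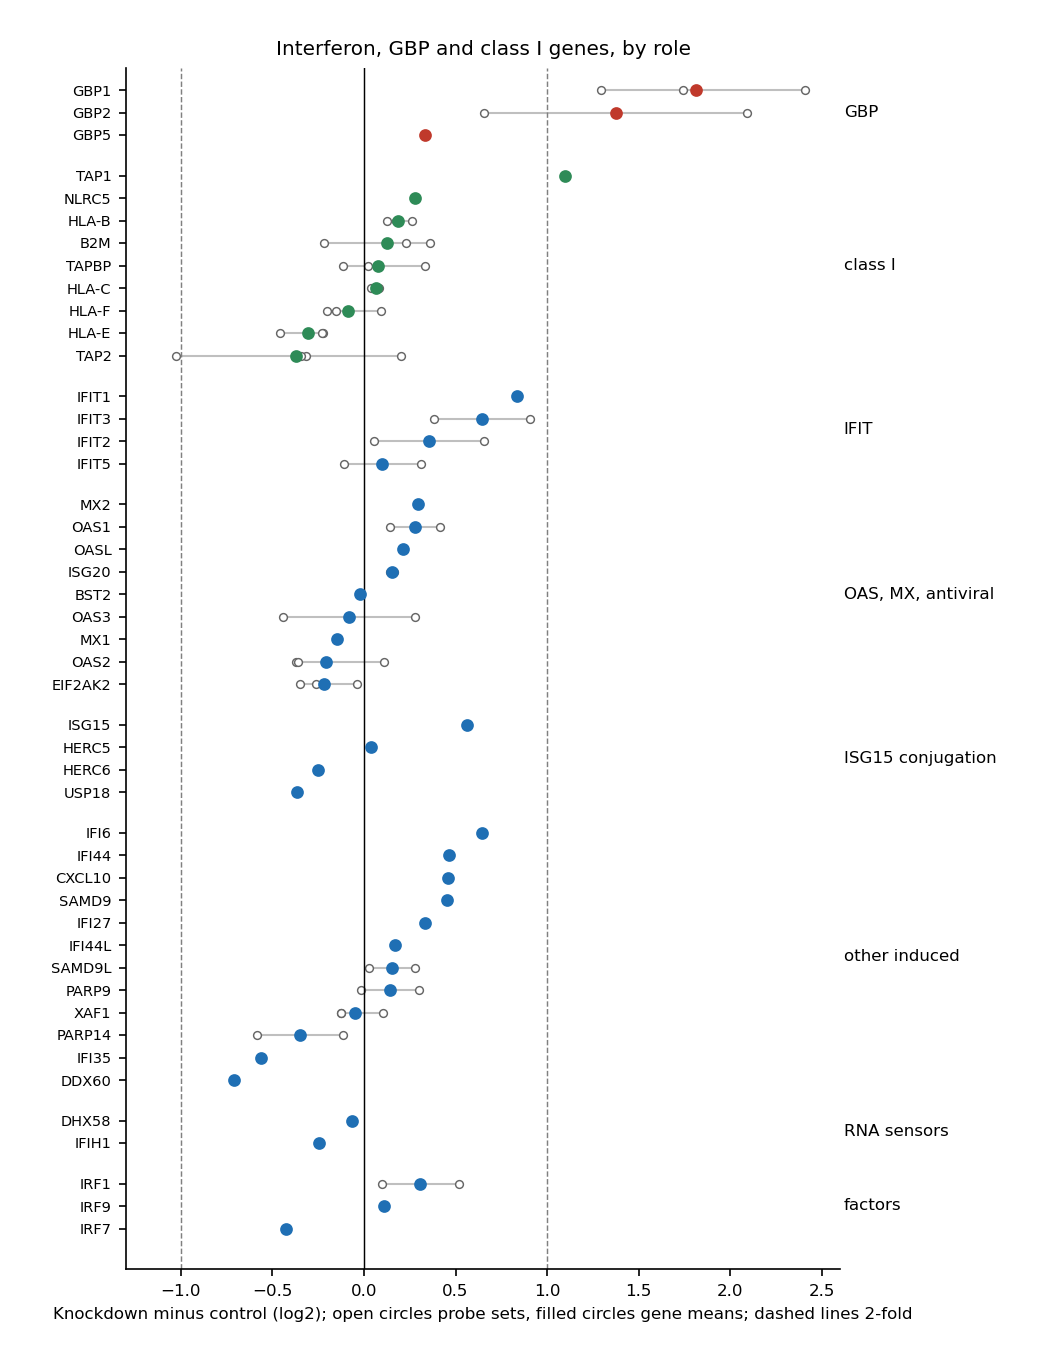
Difference between knockdown and control (log2, horizontal axis) for the 46 measured genes, grouped by role. Open circles are probe sets and filled circles gene means (red GBPs, green class I, blue type I interferon targets), and dashed lines mark 2-fold. GBP1 (1.81), GBP2 (1.37) and TAP1 (1.10) lie beyond the upper line, and DDX60 (-0.71) is the lowest.

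By class, all 3 measured GBPs lay above 0 with a median of 1.37. Of the 34 type I interferon targets, 20 lay above 0 and the median was 0.13, with 3 genes past 1.5-fold upwards and 1 downwards. Of the 9 class I genes, 6 lay above 0 and only TAP1 reached 1.5-fold, with a median of 0.079. The class I median was -0.21 over the 6 genes left once probe sets with the suffix _x_at or _s_at, designs that may hybridise to more than 1 transcript, were dropped. The single TAP1 probe set is one of those left out, as are all probe sets of HLA-B and HLA-C.

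**Figure D2:**
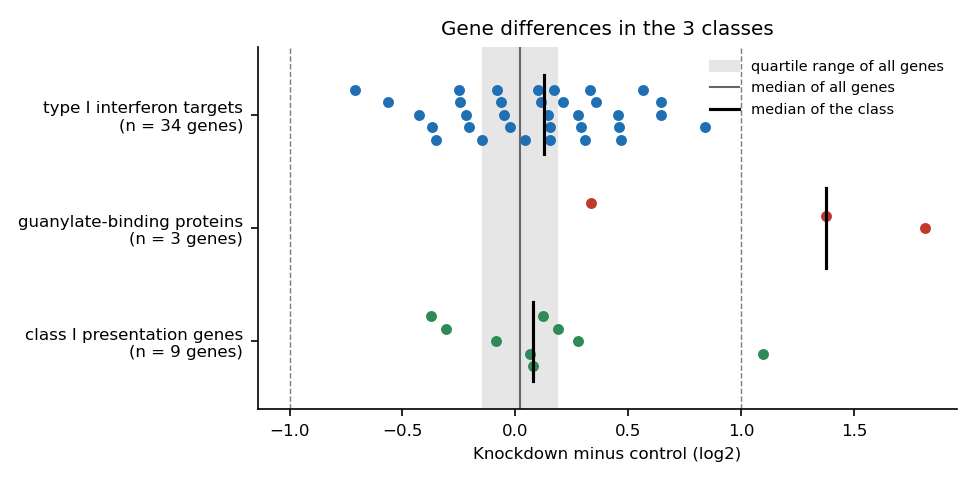
Gene differences (log2, horizontal axis) in the 3 classes. Points are genes, black bars class medians (0.13 for type I targets, 1.37 for GBPs and 0.079 for class I genes), the grey band the quartile range of all genes (-0.14 to 0.18) and the grey line their median (0.020). Only the GBP median lies outside the band.

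The 7 members at least 1.5-fold apart were GBP1, GBP2, TAP1, IFIT1, IFIT3 and IFI6 on the higher side and DDX60 on the lower. The RefSeq promoter table of GRCh38.p14 held 39 of the 50 genes. The 250 bases before the first listed start are shown for 6 of these 7 genes, with GBP2 not in the table, because 5 of them were higher and 1 was lower. Letters run 5′ to 3′ on the strand of the gene, and capitals mark matches to the ISRE core or the gamma-activated site, searched on both strands. The ISRE core was GAAA, any 2 bases and GAAA again (TTTC, any 2 bases and TTTC on the other strand). The gamma-activated site was TTC, any 3 bases and GAA, which reads alike on both strands. In DDX60 the first stretch in capitals is a gamma-activated site and the others are ISRE cores, and in the other genes all capitals are ISRE cores.
GBP1: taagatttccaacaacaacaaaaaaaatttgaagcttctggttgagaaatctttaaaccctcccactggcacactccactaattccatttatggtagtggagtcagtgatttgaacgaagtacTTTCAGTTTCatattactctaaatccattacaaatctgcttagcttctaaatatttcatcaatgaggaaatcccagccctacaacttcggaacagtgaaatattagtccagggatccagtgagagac
TAP1: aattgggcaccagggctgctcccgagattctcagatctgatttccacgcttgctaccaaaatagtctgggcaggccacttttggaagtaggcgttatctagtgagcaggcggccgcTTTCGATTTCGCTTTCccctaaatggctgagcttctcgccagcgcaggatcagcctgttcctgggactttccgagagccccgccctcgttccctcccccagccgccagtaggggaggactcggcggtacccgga
IFIT1: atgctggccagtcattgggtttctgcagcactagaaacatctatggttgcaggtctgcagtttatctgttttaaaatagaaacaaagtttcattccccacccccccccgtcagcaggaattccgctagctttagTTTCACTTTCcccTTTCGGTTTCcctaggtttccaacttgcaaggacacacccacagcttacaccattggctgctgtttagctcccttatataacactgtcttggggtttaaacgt
IFIT3: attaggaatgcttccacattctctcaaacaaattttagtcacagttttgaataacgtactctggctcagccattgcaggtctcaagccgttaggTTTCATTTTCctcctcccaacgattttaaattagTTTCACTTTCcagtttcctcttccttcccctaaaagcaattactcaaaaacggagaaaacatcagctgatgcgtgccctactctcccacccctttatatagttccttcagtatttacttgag
IFI6: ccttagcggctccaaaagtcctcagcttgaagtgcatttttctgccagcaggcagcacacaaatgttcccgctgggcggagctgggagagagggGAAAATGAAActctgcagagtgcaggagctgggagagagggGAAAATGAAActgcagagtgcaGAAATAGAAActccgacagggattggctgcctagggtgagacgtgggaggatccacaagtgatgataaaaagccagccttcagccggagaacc
DDX60: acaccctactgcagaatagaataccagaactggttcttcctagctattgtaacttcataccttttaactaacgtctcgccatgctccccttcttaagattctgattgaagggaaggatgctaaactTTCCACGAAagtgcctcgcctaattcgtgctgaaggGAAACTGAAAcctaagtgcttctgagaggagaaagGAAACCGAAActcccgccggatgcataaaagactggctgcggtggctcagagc

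These windows lie at chr1:89065209-89065458 (GBP1, minus strand), chr6:32853705-32853954 (TAP1, minus strand), chr10:89392373-89392622 (IFIT1, plus strand), chr10:89327747-89327996 (IFIT3, plus strand), chr1:27672193-27672442 (IFI6, minus strand) and chr4:168318753-168319002 (DDX60, minus strand). GBP1 held 1 ISRE core, IFI6 held 3, and TAP1, IFIT1, IFIT3 and DDX60 held 2 each. In TAP1 the 2 matches overlap and start 134 and 128 bases before the gene. DDX60, the lowest member, thus carries the same motif as the higher ones.

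Across the list, 23 of 39 promoters (59.0%) held the ISRE core, against 3.07% of 27305 promoters of the same length. Members were listed as interferon genes, and many such genes are known by this element. The gamma-activated site was found in 9 of 39 (23.1%), against 6.78% of all promoters. Matches of the 2 motifs overlapped each other in BST2 and IFI27. The 23 measured members with an ISRE core had a median difference of 0.15 and 16 of them lay above 0, while the 12 measured members without one had a median of 0.088 with 7 above 0. For the gamma-activated site the order was the other way, with a median of 0.045 and 4 above 0 among the 8 measured members that held it, and a median of 0.14 and 19 above 0 among the 27 that did not. Among all measured genes with a promoter, the 332 that held the ISRE core had a median of 0.021 and the 13552 that did not had a median of 0.020. The last 2 medians are close to each other, and the gaps between members with and without either motif were not tested.

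**Figure D3:**
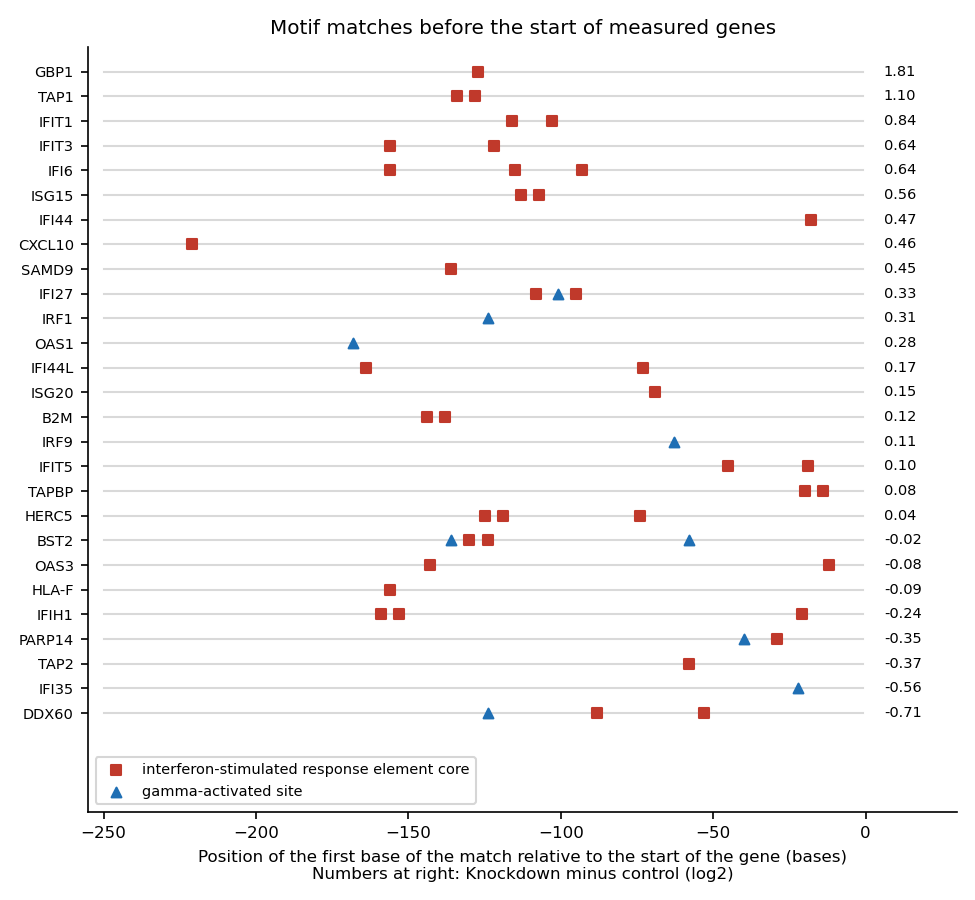
Position of the first base of each motif match, in bases before the start of the gene (horizontal axis), for the 27 measured members with a match. Red squares are ISRE cores, blue triangles gamma-activated sites, and the number at the right is the log2 difference of the gene, highest first. Matches occur from GBP1 (1.81) at the top to DDX60 (-0.71) at the bottom.

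The GBPs are large GTPases that assemble on the membranes of intracellular pathogens and are among the strongest targets of interferon gamma. GBP1 lay at -0.91 in the control and 0.91 in the knockdown, a 3.52-fold higher level (1.81 ± 0.56, SD over 3 probe sets), and ranked 27 from the top of 17689 genes. Its probe sets read 1.29, 1.74 and 2.41, so all were above 2-fold. Those at 1.29 and 1.74 end in _s_at and _x_at and may read more than 1 transcript, while that at 2.41 does not carry such a suffix. GBP2 lay at -0.69 and 0.69 and was 2.59-fold higher (1.37 ± 1.02, SD over 2 probe sets, rank 76). Its probe sets read 2.09 and 0.66, so they agreed in side but only 1 of them passed 2-fold. GBP5, which promotes inflammasome assembly, lay at 0.33 on 1 probe set, short of 1.5-fold. GBP6, which is outside the list, lay at 0.23 on 1 probe set.

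The GBP genes sit side by side on chromosome 1. In chromosomal order the measured values ran from RBMXL1, the gene before the cluster, at -1.001, through GBP1 (1.81), GBP2 (1.37), GBP5 (0.33) and GBP6 (0.23) to LRRC8B, the gene after it, at 0.23 ± 0.20 over 3 probe sets. Among the measured genes of the cluster the 2 largest differences were thus those of direct neighbours. GBP3, just before GBP1, and GBP7 and GBP4, between GBP2 and GBP5, were not analysed here. RBMXL1 rests on 1 probe set.

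**Figure D4:**
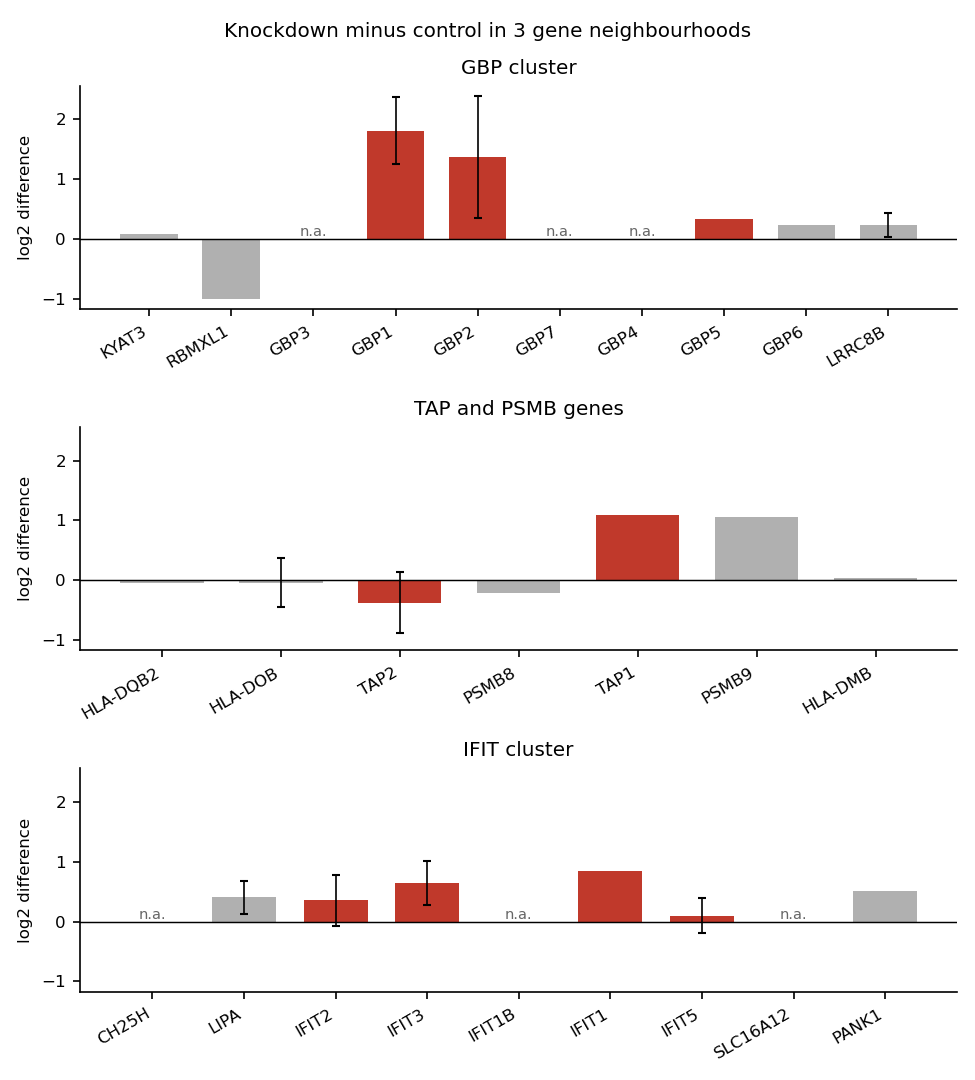
Log2 difference (vertical axis) of genes in chromosomal order in 3 neighbourhoods. Red bars are list members, grey bars other genes, error bars the SD between probe sets where there were 2 or more, and n.a. marks genes not analysed here. GBP1 and GBP2 are neighbours, as are TAP1 (1.10) and PSMB9 (1.05), and the 4 IFIT genes lie between 0.10 and 0.84.

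In class I presentation only TAP1 reached 1.5-fold, and its single probe set ends in _s_at. TAP1, a subunit of the peptide transporter, lay at -0.55 in the control and 0.55 in the knockdown, 2.14-fold higher (1.10, 1 probe set, rank 157). TAP2, its partner in the same transporter, lay at 0.19 and -0.19, on the other side of 0 (-0.37 ± 0.51, SD over 4 probe sets). The TAP2 probe sets read -1.03, -0.35, -0.32 and 0.20, so its direction is not settled on these arrays. PSMB9, an immunoproteasome subunit outside the list, starts 488 bases from TAP1 on the opposite strand and was 2.07-fold higher (1.05, 1 probe set). PSMB8, the immunoproteasome subunit on the other side of TAP1, lay at -0.21 on 1 probe set. HLA-DMB, a class II gene on the other side of PSMB9, lay at 0.046 on 1 probe set. The 2 genes that flank the pair, PSMB8 and HLA-DMB, thus stayed short of 1.5-fold.

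The heavy chains and their partners differed little. HLA-B and HLA-C, the classical heavy chains measured, lay at 0.19 ± 0.068 (SD over 3 probe sets) and 0.064 ± 0.021 (SD over 4 probe sets). All 7 of these probe sets end in _x_at, and class I genes are alike enough that such probe sets may read more than 1 of them. HLA-E, a ligand of inhibitory receptors on natural killer cells, lay at -0.31 ± 0.13 over 3 probe sets, all below 0. HLA-F, another nonclassical heavy chain, lay at -0.087 ± 0.16 over 3 probe sets. B2M, the light chain, lay at 0.12 ± 0.30 over 3 probe sets, and TAPBP, which encodes tapasin, at 0.079 ± 0.23 over 3. NLRC5, the transactivator of class I genes, lay at 0.28 on 1 probe set. None of these reached 1.5-fold.

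All 4 IFIT genes, which encode proteins that bind viral RNA ends or each other, lay above 0 with a median of 0.50. IFIT1 lay at -0.42 in the control and 0.42 in the knockdown, 1.79-fold higher (0.84, 1 probe set). IFIT3, which stabilises IFIT1, lay at -0.32 and 0.32, 1.56-fold higher (0.64 ± 0.37, SD over 2 probe sets that read 0.38 and 0.91). IFIT2, linked to apoptosis, lay at 0.36 ± 0.43 over 2 probe sets, which read 0.055 and 0.66. IFIT5 lay at 0.10 ± 0.30, and its 2 probe sets, -0.11 and 0.31, fell on either side of 0. The 4 genes are neighbours on chromosome 10, and LIPA, the lysosomal lipase gene before them, lay at 0.41 ± 0.28 over 2 probe sets. PANK1, the next gene measured after them, lay at 0.52 on 1 probe set. Both flanking values were thus above those of IFIT2 and IFIT5.

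The OAS and MX families and other antiviral effectors were evenly split. Of 9 measured genes, 4 lay above 0 and 5 below, none reached 1.5-fold, and the median was -0.022. MX2, a GTPase that restricts HIV, lay at -0.15 in the control and 0.15 in the knockdown, a difference of 0.29, while its neighbour MX1, which restricts influenza virus, lay at -0.15. The OAS enzymes make the activator of RNase L. OAS1 lay at -0.14 in the control and 0.14 in the knockdown, a difference of 0.28 ± 0.19 over 2 probe sets. Its neighbours OAS3 and OAS2 lay at -0.082 ± 0.51 over 2 and -0.21 ± 0.27 over 3, with probe sets on either side of 0 in both. OASL, a relative that boosts RNA sensing, lay at 0.21 ± 0.0024 over 2 probe sets. EIF2AK2, the kinase PKR that stops translation on double-stranded RNA, lay at -0.22 ± 0.16 over 3, all below 0. ISG20, an exonuclease, lay at 0.15 ± 0.015 over 2, and BST2, which tethers virions to the cell, at -0.022 on 1.

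The ISG15 system, which attaches a ubiquitin-like protein to others, was split, with 2 of 4 genes above 0 and a median of -0.10. ISG15, the modifier itself, lay at -0.28 in the control and 0.28 in the knockdown, 1.48-fold higher (0.56). USP18, the protease that removes ISG15 and dampens receptor signalling, lay at 0.18 and -0.18, 1.29-fold lower (-0.37). The ligase HERC5 lay at 0.041 and its neighbour HERC6 at -0.25. Each of these rests on 1 probe set.

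The other interferon-induced genes reached 1.5-fold on both sides, with 8 of 12 above 0 and a median of 0.16. IFI6, an inhibitor of apoptosis and of virus replication, lay at -0.32 in the control and 0.32 in the knockdown, 1.56-fold higher (0.64). DDX60, a helicase linked to RNA sensing, lay at 0.36 and -0.36, 1.64-fold lower (-0.71), the lowest of all members. IFI35 was next lowest at -0.56 and PARP14, an ADP-ribosyltransferase, lay at -0.35 ± 0.33 over 2 probe sets, both below 0. IFI44 (0.47), CXCL10 (0.46), a chemokine that attracts T cells, SAMD9 (0.45) and IFI27 (0.33) followed IFI6 on the higher side, each on 1 probe set. The neighbours of IFI44 and SAMD9, IFI44L (0.17) and SAMD9L (0.15 ± 0.18 over 2), lay on the same side at smaller values. PARP9, which pairs with DTX3L, lay at 0.14 ± 0.22 over 2 probe sets and XAF1, an antagonist of inhibitors of apoptosis, at -0.049 ± 0.13 over 3. IFI6, DDX60 and IFI35 each rest on 1 probe set, and those of DDX60, IFI35 and IFI44 end in _s_at.

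None of the 2 RNA sensors and 3 transcription factors measured among the members reached 1.5-fold. The RNA sensor IFIH1, also called MDA5, lay at 0.12 in the control and -0.12 in the knockdown (-0.24), and DHX58, its regulator, at 0.032 and -0.032 (-0.065). IRF1, the factor through which interferon gamma reaches GBP and TAP1 promoters, lay at -0.15 and 0.15, a difference of 0.31 ± 0.30 over 2 probe sets. IRF7, which amplifies type I interferon production, lay at 0.21 and -0.21 (-0.43, 1 probe set). IRF9, the DNA-binding partner of STAT2, lay at 0.11 on 1 probe set. IRF1 and IRF7 thus lay on opposite sides of 0.

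Agreement between the probe sets of a member was close to that over all genes. Of the 23 members read by several probe sets, 14 (60.9%) showed a single side of 0, against 50.3% of 8944 such genes. The pooled SD between probe sets was 0.33 for members and 0.33 for all genes. Smaller than that were 27 of the 46 member differences, against 13499 of the 17689 over all genes. The other 23 members rest on 1 probe set and have no spread of their own. Of the 82 probe sets, 51 lay above 0 (53.3% of all probe sets did), 5 passed 2-fold upwards (1.48% of all) and 1 downwards (2.39%). The 5 belong to GBP1 (3), GBP2 (1) and TAP1 (1), and the lower one to TAP2.

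Upstream of these genes, all but 1 of the interferon, receptor, JAK, STAT and SOCS genes measured stayed short of 1.5-fold. Of 9 interferon genes measured out of 21, 5 lay above 0 and none reached 1.5-fold, with IFNW1 at 0.36, IFNL1 at 0.28 and IFNA7 at 0.21. Whether any interferon gene was expressed cannot be read from centred values. Of 13 receptor, JAK, STAT and SOCS genes measured out of 14, 7 lay above 0 and 1 reached 1.5-fold. That was JAK2, the kinase of the interferon gamma receptor, 1.52-fold lower (-0.60 ± 0.074 over 3 probe sets, all below 0). IL10RB, a chain of the interferon lambda receptor, lay at 0.41 and TYK2, a kinase of the type I receptor, at 0.26, each on 1 probe set. JAK1 lay at -0.14 ± 0.18 over 4 probe sets.

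Among 16 nucleic acid sensors and adaptors measured out of 17, 10 lay above 0, with a median of 0.078. TBK1, the kinase that activates IRF3, was 1.69-fold higher (0.76, 1 probe set), and TICAM1, the adaptor of TLR3, lay at 0.54 on 1. TLR3, the endosomal sensor of double-stranded RNA, lay at -0.66 ± 0.997 over 2, with probe sets at -1.37 and 0.044. Only 1 TLR3 probe set thus carries its difference.

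The other interferon targets, 40 measured out of 44, had a median of 0.019 with 21 above 0, close to all genes. TRIM22, a ubiquitin ligase that p53 also induces, was 2.58-fold higher (1.37, 1 probe set). CD274, which encodes the checkpoint ligand PD-L1, was 2.17-fold lower (-1.12 ± 0.61 over 2 probe sets, both below 0). WARS1, a tryptophanyl-tRNA synthetase, was 1.70-fold lower (-0.77 ± 0.11 over 2). CD274 and WARS1 are both textbook targets of interferon gamma, as GBP1, GBP2 and TAP1 are. TRIM22, CD274 and WARS1 were named because they lay farthest from 0 in this list. In the same list EPSTI1 lay at 0.69 ± 0.037 over 2 probe sets, and CXCL9 at 0.077 and IDO1 at 0.012 on 1 each. What lies behind these differences was not tested.

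**Figure D5:**
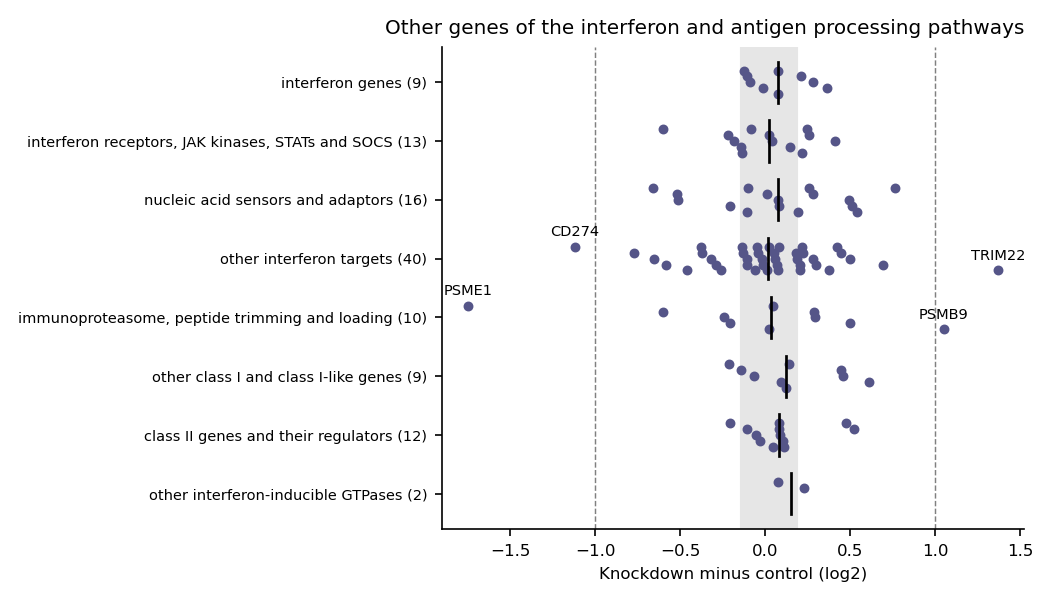
Gene differences (log2, horizontal axis) in 8 further lists, with the number of genes measured in brackets. Points are genes, black bars list medians, the grey band the quartile range of all genes (-0.14 to 0.18) and dashed lines 2-fold. TRIM22 and PSMB9 lie beyond the upper line and CD274 and PSME1 beyond the lower.

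In antigen processing, 10 of 12 genes were measured, 6 lay above 0 and the median was 0.034. PSME1, a subunit of the proteasome activator PA28, was 3.35-fold lower (-1.75, 1 probe set), opposite to PSMB9. TAPBPL, which edits class I peptides, was 1.52-fold lower (-0.60 ± 0.037 over 2 probe sets). Class I-like genes, 9 measured out of 12, had a median of 0.13 with 6 above 0. MICA, a ligand of the natural killer receptor NKG2D, was 1.53-fold higher (0.61, 1 probe set), ULBP2, another such ligand, lay at 0.45 ± 0.095 over 2, and MR1, which presents vitamin metabolites, at 0.46 ± 0.48 over 6. Of the 12 class II genes and regulators, 8 lay above 0 and none reached 1.5-fold, with HLA-DRA at 0.52 ± 0.046 over 2 probe sets, HLA-DPA1 at 0.48 ± 0.39 over 2 and HLA-DRB1 at -0.21 on 1. The 2 other interferon-inducible GTPases measured, of 4, lay at 0.23 (GBP6) and 0.077 (IRGQ).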

How the data were processed

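RNA from 1 control and 1 KDM4A knockdown culture of LNCaP cells was measured, 3 µg of each per the labels' protocols. The authors deposited values on a log scale, taken here as log2. The submitters' processing notes name RMA without a version. In each of 44672 probe sets the 2 arrays summed to 0 within 1e-06, so the values are centred. Levels, background and detection are lost, which leaves no way to drop dim probe sets. Base 2 is the usual scale of RMA but is not stated, and all folds depend on it. Neither the centring step nor a genome build is named in the labels. The direction follows the sample of each column.

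Gene names are those of the platform annotation. Their Entrez identifiers were looked up among RefSeq genes of GRCh38.p14, where 34839 of 34880 probe sets matched and no symbol changed. A further 1619 probe sets named several genes and entered no gene value, 8131 were unnamed here, and 42 AFFX control probe sets were kept apart. With 1 array in each group a fixed size rule (2-fold, and 1.5-fold for a wider view) replaced a test. Precision is limited by the number of arrays. Named members were those at least 1.5-fold apart and the 2 farthest from 0 in each role, and up to 3 genes farthest from 0 came from each further list. JAK1 and KDM4A were to be named whatever their values. The members and lists were chosen with earlier results of these data known. The calculation was tested on simulated data. Alternatives were leaving out _x_at and _s_at probe sets, medians over probe sets, subtracting the overall median, adding probe sets shared between genes, genes with 2 or more probe sets, and size rules of 1.5-fold and 3-fold. Promoter sequences came from the first start listed for each gene (8 of the 39 members matched had several). Computations used Python 3.11.15, numpy 2.4.6, pandas 2.3.3 and matplotlib 3.10.9.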

Additional observations from a re-analysis of the deposited data

How the results depend on the processing

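No paired analysis was possible because each group had 1 array, and for the same reason no replicate could be left out. A median was taken as moved beyond 0.1 or past 0, and a count beyond 1.5 times. Without _x_at and _s_at probe sets the class I median was -0.21 over 6 genes, in place of 0.079 over 9, since TAP1, HLA-B and HLA-C drop out by construction, and 2 members were at least 2-fold higher in place of 3. Among genes with 2 or more probe sets the GBP median was 1.59 over 2 genes and 15 of 23 members lay above 0, with fewer genes by construction. Under the size rule of 1.5-fold 6 members were higher and 1 lower, and under 3-fold 1 was higher. The remaining 33 medians and counts, that count of 2 among them, stayed within these limits. All 60 values of the 16 named members stayed within the SD between probe sets, or kept a 2-fold call. Most of them could hardly move by construction. With 1 or 2 probe sets, the mean and the median of a gene are equal. The only shared probe set that names a member is that of IRF9, which is not among the 16, and the overall median subtracted was 0.014. Without _x_at and _s_at probe sets TAP1, DDX60, ISG15 and IRF7 have no value. Depth has no counterpart here, because centring removed signal over background.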

Other observations

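The genes next to the members were read in the same way, as the 2 protein-coding genes on each side of each member in the order of the RefSeq annotation. Of 103 such flanking genes measured, 60 (58.3%) lay above 0, against 53.7% of all genes, with a median of 0.053. A difference of at least 1.5-fold was reached by 5 upwards (4.3% of all genes) and by 6 downwards (4.38%). The 4 named here were chosen after their values were seen, and PTGFR and PALLD are the lowest and the highest of the 103. PTGFR, a prostaglandin receptor gene beside IFI44L, lay at -2.72 ± 0.027 over 2 probe sets, while IFI44L lay at 0.17. PALLD, an actin-binding protein gene beside DDX60L, lay at 1.61 ± 0.046 over 3 probe sets, while DDX60 lay at -0.71. CMPK2, a nucleotide kinase gene that neighbours RSAD2 and is itself induced by interferon, lay at -0.58 on 1 probe set. TMPRSS2, an androgen-induced protease gene beside MX1, lay at -0.76 ± 0.16 over 4 probe sets.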
